A study of Mus musculus with 12 samples.

Results

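Nkx1-2, Nkx2-1, Nkx2-3, Nkx2-5, Nkx2-9, Nkx6-1, Tlx1, Tlx2 and Tlx3 are homeobox genes of the NK and TLX families, and they were examined in primary mouse OPCs left untreated or given an EZH2 inhibitor, IFN-γ or the pair of them. The 9 genes were chosen by symbol from 55536 genes, and each of them had a count in at least 1 library. RNA-seq was performed in 12 libraries, 3 replicates in each of 4 groups. Ctr-OPCs received neither agent. EZH2i stands for EPZ011989, a small molecule inhibitor of the methyltransferase EZH2, used at 1.5 μM over 4 days and replaced each 48 h. The cytokine IFN-γ was added in the last 6 h at 100 ng/ml, to cells without EZH2i (IFN-γ) and to cells with it (IFN-γ with EZH2i). All groups were labelled as Sox10GFP+ OPCs from brains of pups at postnatal days 4 to 6. In this mouse line the Sox10 promoter drives Cre, which turns on GFP, and the protocol also allows selection with CD140a beads without naming the libraries. The brains of several pups were pooled and the replicates came from different litters. The labels also give EAE, a disease model of adult mice, as the mouse model of these cultures.

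NK and TLX genes code for transcription factors that bind DNA through a homeodomain and set cell identity during development. Tlx1 is needed for the spleen, Tlx1 and Tlx3 act in excitatory sensory neurons of the dorsal spinal cord, and Tlx2 acts in the enteric nervous system. Nkx2-5 is a core factor of the heart, Nkx2-3 acts in gut and spleen, and Nkx2-1 specifies lung, thyroid and ventral forebrain. Nkx6-1 acts in motor neuron progenitors and pancreatic beta cells, Nkx2-9 in the ventral neural tube, and Nkx1-2 in the caudal progenitors of the embryo. Their relatives Nkx2-2 and Nkx6-2 are factors of the oligodendrocyte lineage. EZH2 is the catalytic subunit of PRC2, which deposits H3K27me3, a repressive histone mark found over many CpG-rich promoters of developmental genes.

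The promoters of 3 genes are shown because the results turn on them: Tlx1 passed the test with EZH2i, Nkx2-5 had the next highest level, and Nkx2-1 had counts in every library and did not separate by EZH2i. Each sequence is 300 bases of the RefSeq table on GRCm38.p6, written 5′ to 3′ on the strand of the gene, from 250 bases before to 50 bases after its start. Capitals mark each CG dinucleotide. RefSeq held a promoter for 8 of the 9 genes, and Tlx2 is named only. The windows are chr19:45150465-45150764 on the + strand for Tlx1, chr17:26841516-26841815 on the - strand for Nkx2-5 and chr12:56536859-56537158 on the - strand for Nkx2-1. The RefSeq start of Nkx2-5 lies inside the span of the gene in the annotation used for counting.
Tlx1: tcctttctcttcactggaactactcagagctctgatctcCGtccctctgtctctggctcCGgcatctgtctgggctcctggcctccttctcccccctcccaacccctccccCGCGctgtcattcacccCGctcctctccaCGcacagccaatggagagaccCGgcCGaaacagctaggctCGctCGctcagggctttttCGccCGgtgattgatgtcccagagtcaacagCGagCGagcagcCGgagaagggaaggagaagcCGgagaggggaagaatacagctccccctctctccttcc
Nkx2-5: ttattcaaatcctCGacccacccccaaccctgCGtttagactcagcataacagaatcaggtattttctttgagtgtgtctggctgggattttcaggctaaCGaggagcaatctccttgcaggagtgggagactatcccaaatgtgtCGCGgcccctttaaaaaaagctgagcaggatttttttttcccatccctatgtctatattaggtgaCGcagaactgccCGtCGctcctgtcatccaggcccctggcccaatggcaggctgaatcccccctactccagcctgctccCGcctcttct
Nkx2-1: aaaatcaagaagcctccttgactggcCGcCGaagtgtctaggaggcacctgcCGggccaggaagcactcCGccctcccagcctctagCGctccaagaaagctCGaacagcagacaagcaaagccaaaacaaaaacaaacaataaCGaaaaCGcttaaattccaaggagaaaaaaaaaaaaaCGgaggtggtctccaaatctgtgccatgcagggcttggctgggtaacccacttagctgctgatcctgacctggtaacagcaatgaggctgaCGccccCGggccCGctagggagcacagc

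The motif CG, which reads the same on both strands, was counted in each window. Tlx1 had 16 of them, and 33.0% of the 32851 promoters in the table had as many or more. Nkx2-5 had 9, reached by 45.8% of promoters, and Nkx2-1 had 12, reached by 39.6%. Of the other 5 genes, Nkx2-3 and Nkx2-9 had 15 each, Tlx3 had 18, Nkx1-2 had 21 and Nkx6-1 had 40. Only 3.91% of promoters had as many as Nkx6-1. The median over all promoters was 7, below each of the 8 genes.

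Read pairs were assigned to transcripts by the authors with Salmon, and a gene's count is the rounded sum over its transcripts. Levels are CPM after TMM scaling, where 1 count is worth 0.0152 to 0.0565 CPM depending on the library. Library totals ranged from 17403896 counts in Ctr replicate 2 to 66546017. The test was edgeR's quasi-likelihood test, with all 12 libraries in a single model, and p-values were adjusted by the Benjamini-Hochberg method over the 18995 genes past a filter on low counts. A gene was called at an adjusted p under 0.05. Tlx1, Nkx2-5 and Tlx3 passed the filter through libraries with EZH2i, with 6, 0 and 1 counts over the Ctr libraries. Genes this low could be called higher with EZH2i but hardly lower. The other 6 genes did not pass. For those 6, p-values come from the same test without the filter, over 31994 genes with a count. In bulk RNA, fewer cells of a type and less RNA per cell cannot be told apart. Markers of OPCs summed to 4304 to 8375 CPM in the 12 libraries, against 0.621 to 1.59 CPM for microglia. Astrocyte markers summed to 1174 to 2771 CPM, so the cultures were not free of signal from other lists. Transcripts of Ezh2 itself, an enzyme that EZH2i blocks at the protein level, were at 49.4 ± 5.2 CPM in Ctr and 39.6 ± 7.7 in EZH2i (SD, n = 3), and the edgeR adjusted p of 0.806 did not pass. Irf1, a direct target of IFN-γ signaling, rose with IFN-γ to 951 ± 116 CPM (SD, n = 3), with a log2 fold change of 6.31 and an edgeR adjusted p of 2.98e-10.

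The 9 genes were at or near 0 without EZH2i. Between 3 and 12 counts fell on all 9 together in the Ctr libraries, and between 9 and 17 in the IFN-γ libraries. With EZH2i they summed to 142 to 238 counts, and to 74 to 202 with IFN-γ and EZH2i. Tlx1 took 40.5% to 71.0% of the counts in each of the 6 EZH2i libraries. Of the 9 genes, 6 had 3 EZH2i libraries that all lay above the 3 Ctr libraries, namely Tlx1, Tlx2, Nkx2-5, Nkx6-1, Nkx2-9 and Nkx1-2. Such a separation upwards held for 5.57% of all genes with a count. The 9 genes were chosen with earlier results of these data known, so the shares over all genes give scale and are no test. With IFN-γ present, 6 of the 9 again separated upwards by EZH2i, against 4.75% of genes, and these were Tlx1, Tlx2, Tlx3, Nkx2-5, Nkx2-3 and Nkx6-1. None separated downwards in either comparison, as 3.78% and 3.54% of genes did, but a gene at 0 in a base library could not do so. Tlx1 alone was called, in both comparisons, where 0.405% of the genes tested were called without IFN-γ and 0.353% with it. The plot of levels by library shows the 9 genes.

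**Figure D1:**
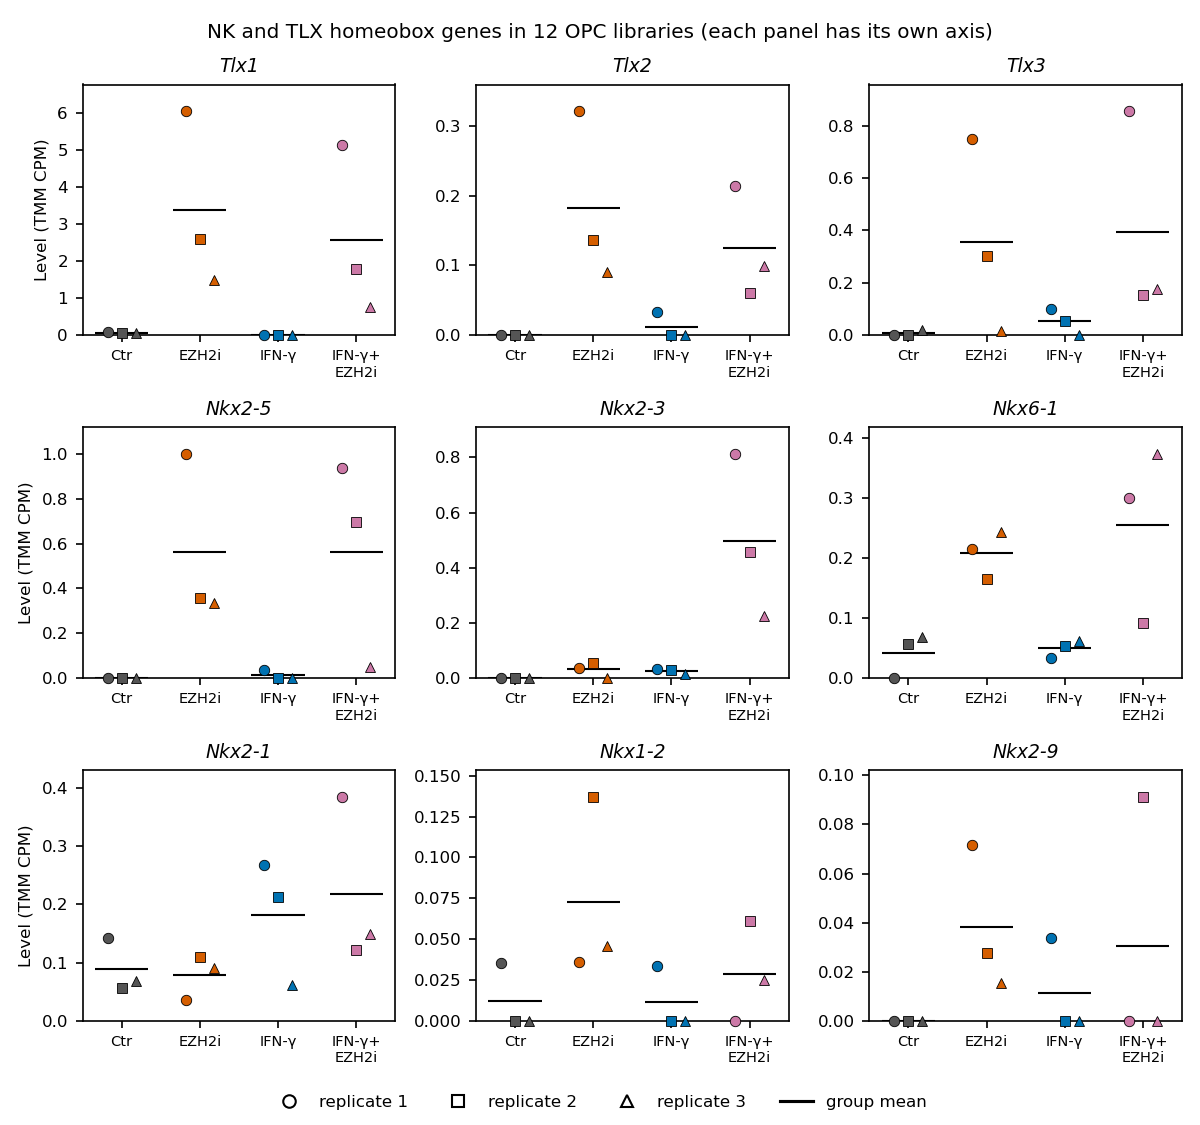
Level of each gene in TMM CPM (linear axis from 0, scaled per gene) in the 3 libraries of each group. Symbols mark the replicate and bars the group mean. Tlx1 reached 6.04 CPM with EZH2i and stayed under 0.1 CPM in all 6 libraries without it, while Nkx2-1 had counts in all 12.

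Tlx1 (ENSMUSG00000025215, chr19:45150680-45156943, + strand) had the highest level of the 9 genes with EZH2i. In Ctr it had 2, 1 and 3 counts in replicates 1 to 3, and in EZH2i 169, 95 and 98, which is 6.04, 2.60 and 1.49 CPM. With IFN-γ it had 0 counts in each library, and with IFN-γ and EZH2i 120, 59 and 30, or 5.13, 1.79 and 0.745 CPM. The groups with and without EZH2i did not overlap, and replicate 1 was the highest library in both EZH2i groups. The mean rose from 0.0594 ± 0.0103 CPM in Ctr to 3.38 ± 2.37 in EZH2i (SD, n = 3). The log2 fold change was 5.78 with a standard error of 0.96 and an edgeR adjusted p of 0.0401. The ratio of the pooled levels was 48.5, with a 95% interval from counting error of 22.1 to 133. With IFN-γ, EZH2i libraries averaged 2.56 ± 2.29 CPM (SD, n = 3), and the edgeR adjusted p was 0.0260. Since IFN-γ libraries held no count, the difference is given as at least 95.4-fold higher, against a floor of 3 counts over the group.

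Both calls of Tlx1 depended on which libraries entered the fit. Without 1 library at a time, 6 of 12 fits called it for EZH2i versus Ctr, and the edgeR adjusted p ran from 0.0200 to 0.199. The call was lost without any 1 Ctr library (0.158, 0.193 and 0.199 without replicates 1, 2 and 3), without EZH2i replicate 1 (0.105) or 2 (0.106), and without IFN-γ with EZH2i replicate 2 (0.0752). Under IFN-γ, 5 of 12 fits called it, over a range of 0.0113 to 0.117, and only the 6 libraries compared gave 0.239. There the call was lost without Ctr replicate 1 (0.0510) or 2 (0.0535), EZH2i replicate 2 (0.0513), IFN-γ replicate 1 (0.0955), 2 (0.117) or 3 (0.102), and IFN-γ with EZH2i replicate 2 (0.0734). The log2 fold change for EZH2i versus Ctr fell to 5.06 without EZH2i replicate 1, and the lower bound under IFN-γ fell to 53.6-fold without IFN-γ with EZH2i replicate 1 and 48.6-fold without IFN-γ replicate 3. DESeq2 gave adjusted p-values of 3.24e-07 and 2.48e-08, so its calls were far from the threshold.

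Tlx3 (ENSMUSG00000040610, chr11:33200752-33203589, - strand) had 0, 0 and 1 counts in Ctr and 21, 11 and 1 in EZH2i. It had 3, 2 and 0 counts in IFN-γ and 20, 5 and 7 in IFN-γ with EZH2i. EZH2i replicate 3, with 1 count, lay at the level of Ctr, so the groups overlapped without IFN-γ, and they did not overlap with it. The mean levels were 0.00565 ± 0.00979 CPM in Ctr and 0.356 ± 0.371 in EZH2i (SD, n = 3). The fitted log2 fold changes were 4.74 with a standard error of 1.69 and 3.07 with a standard error of 1.31, and the edgeR adjusted p-values of 0.453 and 0.722 did not pass. Tlx2 (ENSMUSG00000068327, chr6:83068324-83070293, - strand) had no count in Ctr and 9, 5 and 6 in EZH2i. In IFN-γ it had 1, 0 and 0 counts and in IFN-γ with EZH2i 5, 2 and 4. Every EZH2i library lay above every library without EZH2i. Tlx2 was at least 5.36-fold higher with EZH2i than in Ctr, and under IFN-γ the ratio was 15.1, with an interval of 2.19 to 648. The bound was 2.35-fold without Ctr replicate 3, and the ratio was 7.68 without IFN-γ replicate 3 and at least 3.89 without IFN-γ replicate 1. The unadjusted edgeR p-values were 0.00198 and 0.0159, and the adjusted ones of 0.214 and 0.787 did not pass.

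Nkx2-5 (ENSMUSG00000015579, chr17:26838664-26845009, - strand), the heart factor, had no count in Ctr and 28, 13 and 22 in EZH2i. The IFN-γ libraries had 1, 0 and 0 counts, and those with IFN-γ and EZH2i had 22, 23 and 2. All 6 EZH2i libraries lay above the 6 others, although replicate 3 with IFN-γ and EZH2i was low at 0.0497 CPM, against 0.940 and 0.699 in replicates 1 and 2. The mean with EZH2i was 0.564 ± 0.379 CPM and with both agents 0.563 ± 0.461 (SD, n = 3). The level was at least 16.9-fold higher with EZH2i than in Ctr. This bound was 7.40-fold without Ctr replicate 3, the deepest Ctr library. Under IFN-γ the ratio was 64.4, with an interval of 11.0 to 2595 that reflects the single count in IFN-γ. It was 32.8 without IFN-γ replicate 3, 106 without replicate 3 with both agents, and at least 16.6 without IFN-γ replicate 1. The edgeR adjusted p-values of 0.153 and 0.204 did not pass. DESeq2 called Nkx2-5 in both, at adjusted p-values of 0.00345 and 0.0108. In a fit blocked by replicate number, edgeR's adjusted p was 0.0191 under IFN-γ.

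Nkx2-3 (ENSMUSG00000044220, chr19:43612325-43615892, + strand), a factor of the gut and spleen, had counts mainly in cells given both agents. It had no count in Ctr, 1, 2 and 0 in EZH2i, 1 in each IFN-γ library, and 19, 15 and 9 in IFN-γ with EZH2i. The 3 libraries with both agents, at 0.812, 0.456 and 0.224 CPM, lay above the other 9, whose highest value was 0.0548 CPM. Separation upwards held for 4.75% of genes against IFN-γ and 8.53% against EZH2i. The pooled level was 19.6 times that with IFN-γ alone (interval 6.28 to 98.9) and 19.4 times that with EZH2i alone (interval 6.19 to 97.5). These values share the libraries with both agents. The second was 41.8 without EZH2i replicate 2 and 9.57 without EZH2i replicate 3. Without the filter, edgeR's adjusted p was 0.111 against IFN-γ and 0.0182 against EZH2i, where the log2 fold change was 4.10 with a standard error of 0.96. This p is not a stable call. Nkx2-3 failed the filter with all 12 libraries, it missed without EZH2i replicate 1 (0.0505) or 3 (0.0582), and it was not fitted without replicate 1 or 2 with both agents, which hold most of its counts. The interaction of EZH2i and IFN-γ, which asks whether the EZH2i difference changes with IFN-γ, had an unadjusted edgeR p of 0.633 for Nkx2-3, so a difference between the effects was not shown. The summed level of 7 neuron markers also moved with IFN-γ. It was 58.5 to 118 CPM in Ctr, 85.3 to 137 in EZH2i and 740 to 1812 in every library with IFN-γ. No marker was at 0 in all libraries of a group. Tubb3 alone rose from a mean of 26.7 CPM in Ctr to 916 in IFN-γ. Of the 7, 5 were fitted higher with IFN-γ than in Ctr, and Rbfox3 and Snap25 were fitted lower. Tubb3, Syt1 and Stmn2 were called, where 8.75% of genes tested were called. The part of the neuron markers in the level of Nkx2-3 was not tested.

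Nkx6-1 (ENSMUSG00000035187, chr5:101658139-101664996, - strand), the motor neuron and beta cell factor, had 0, 1 and 4 counts in Ctr and 6, 6 and 16 in EZH2i. It had 1, 2 and 4 counts in IFN-γ and 7, 3 and 15 in IFN-γ with EZH2i. The EZH2i libraries lay above their base libraries in both cases. Mean levels were 0.0414 ± 0.0363 CPM in Ctr and 0.207 ± 0.040 in EZH2i, and 0.0495 ± 0.0145 in IFN-γ and 0.254 ± 0.146 with both (SD, n = 3). The pooled ratios were 4.50 (interval 1.72 to 14.9) and 4.89 (interval 2.06 to 13.4). The first was 9.86 without Ctr replicate 3. The unadjusted edgeR p-values were 0.0191 and 0.0111, and the adjusted ones of 0.718 and 0.668 did not pass. Unlike in Tlx1, replicate 3 was the highest library in both EZH2i groups.

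Nkx2-9 and Nkx1-2 were near the limit of detection. Nkx2-9 (ENSMUSG00000058669, chr12:56611389-56613284, - strand) had 0 counts in Ctr, 2, 1 and 1 in EZH2i, 1, 0 and 0 in IFN-γ, and 0, 3 and 0 with both agents. Nkx1-2 (ENSMUSG00000048528, chr7:132594878-132599637, - strand) had 1, 0 and 0 counts in Ctr, 1, 5 and 3 in EZH2i, 1, 0 and 0 in IFN-γ, and 0, 2 and 1 with both. The groups of Nkx1-2 without IFN-γ were separated only by library size, with 0.0355 CPM in Ctr replicate 1 and 0.0357 in EZH2i replicate 1, each from 1 count. The pooled ratio of Nkx1-2 was 7.24, with an interval of 1.00 to 317, and it was 4.47 without EZH2i replicate 2, 3.17 without Ctr replicate 3 and at least 1.76 without Ctr replicate 1. Its unadjusted edgeR p-values were 0.112 without IFN-γ and 0.336 with it, and those of Nkx2-9 were 0.0992 and 0.369. Nkx1-2 lies within the annotated span of Fgfr2 on the same strand, so the assignment of its reads is uncertain.

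Nkx2-1 (ENSMUSG00000001496, chr12:56531958-56536908, - strand), the lung, thyroid and forebrain factor, was the 1 gene of the 9 with counts in all 12 libraries. It had 4, 1 and 4 counts in Ctr and 1, 4 and 6 in EZH2i, and 8, 8 and 4 in IFN-γ and 9, 4 and 6 with both. These groups overlapped by EZH2i in both settings. The pooled ratio was 0.983 without IFN-γ, with an interval of 0.370 to 2.68, and 1.30 with it, with an interval of 0.657 to 2.57, and the latter was 0.829 without IFN-γ replicate 3. Differences within these bounds were not resolved at this depth. The bounds leave out the spread of replicates, so larger differences could be missed too. In the fit without the filter, the standard errors of the log2 fold change were 0.85 and 0.74. The libraries with both agents lay above those with EZH2i alone, as held for 8.53% of genes, with a ratio of 2.33 (interval 1.05 to 5.42). The unadjusted edgeR p of 0.107 did not pass.

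**Figure D2:**
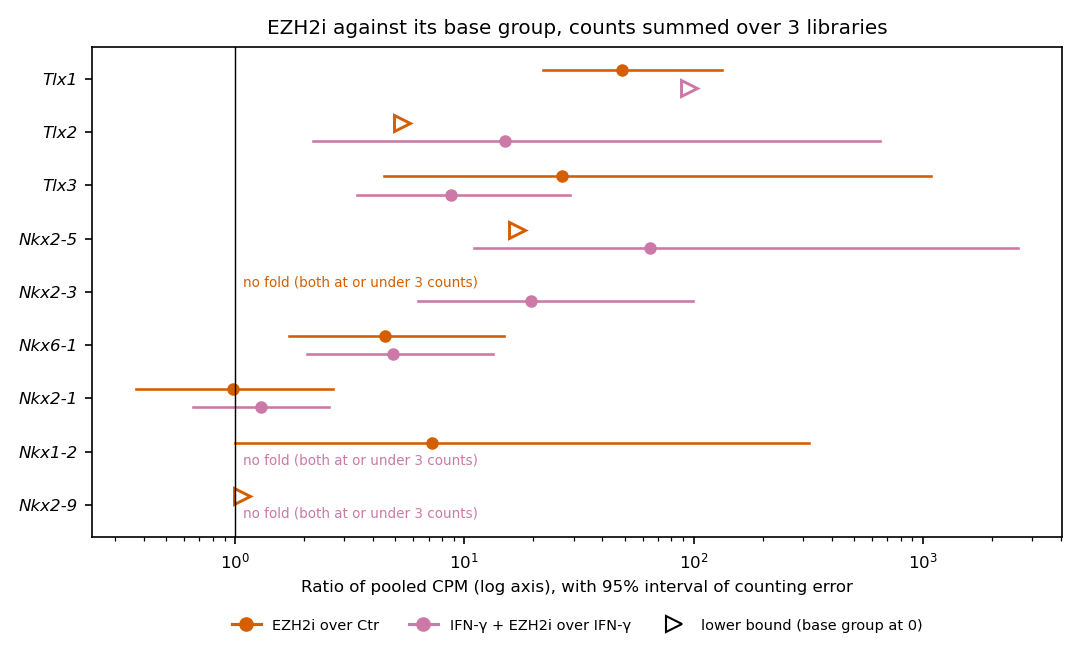
Ratio of the pooled CPM of 3 EZH2i libraries over their 3 base libraries, on a log axis, for each gene without IFN-γ (orange) and with it (pink). Lines are 95% intervals of counting error and open triangles are lower bounds where the base group had no count. Nkx2-1 is centred near 1, at 0.983 and 1.30, and Tlx1 lies at 48.5 and at least 95.4.

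The intervals cover counting error only, since they pool the counts of 3 libraries and leave out the spread of replicates. They also treat reads as independent molecules, which reads without molecular identifiers are not. Read per length, as TPM from the deposited files, Tlx1 was the highest of the 9 genes in EZH2i at 1.54 ± 0.99 TPM, followed by Nkx2-5 at 0.346 ± 0.233, Tlx3 at 0.218 ± 0.226, Tlx2 at 0.141 ± 0.098 and Nkx6-1 at 0.0568 ± 0.0096 (SD, n = 3). Tlx1 at 0.722 TPM or more did not overlap Nkx2-5 at 0.614 TPM or less. The ranges of Nkx2-5 and Tlx3 overlapped, and so did those of Tlx3 and Tlx2. With both agents the order began with Tlx1 at 1.10 ± 0.92 TPM, Nkx2-5 at 0.308 ± 0.253, Tlx3 at 0.210 ± 0.218 and Nkx2-3 at 0.185 ± 0.116 (SD, n = 3), and each of these overlapped the next. In Ctr all 9 genes were at or under 0.0605 TPM. For scale, the oligodendrocyte gene Nkx2-2 was at 27.6 ± 7.5 TPM in Ctr and 19.9 ± 6.1 in EZH2i, and Nkx6-2 at 3.23 ± 0.52 and 4.73 ± 3.11 (SD, n = 3). The lowest Nkx6-2 value in EZH2i, 2.75 TPM, was above the highest of Tlx1, 2.63 TPM.

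Compared with Ctr, none of the 3 genes tested with IFN-γ alone passed the edgeR test, where 8.75% of genes tested were called. Nkx2-3 separated upwards, at 1 count in each IFN-γ library against 0 in Ctr, as 9.75% of genes did, and no fold is given at this depth. Tlx1 separated downwards, from 6 counts over the Ctr libraries to 0, as 6.69% of genes did. Its level in IFN-γ was at most 0.397 times that in Ctr, with an edgeR adjusted p of 0.313. In a fit blocked by replicate number, edgeR gave an adjusted p of 0.0291. Without IFN-γ replicate 3 the limit was 0.778. Between the groups with EZH2i, none of the 3 genes tested passed, where 8.07% of genes were called. There 2 of the 9 separated upwards, Nkx2-1 and Nkx2-3, as 8.53% of genes with a count did. Tlx1 was at 0.779 times the level when IFN-γ was added, and Nkx2-5, Tlx3, Tlx2 and Nkx6-1 were at 1.01, 1.31, 0.743 and 1.21 times. The groups of these 5 genes overlapped. Tlx1 was at 0.438 times without replicate 1 with both agents and above 1 without EZH2i replicate 1 (1.15) or replicate 3 with both agents (1.14). Nkx2-5 was at 1.65 times without replicate 3 with both agents. Tlx3 was at 2.83 times without EZH2i replicate 1, and below 1 without EZH2i replicate 3 (0.668) or replicate 1 with both agents (0.648). The interaction called 0 genes by edgeR and by DESeq2, with 127 (0.669%) at an unadjusted edgeR p under 0.05, and Tlx1, Nkx2-5 and Tlx3 were not among them. For Tlx1 its unadjusted edgeR p was 0.105.

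A list of 28 other genes of the NK subclass, Nkx2-2 and Nkx6-2 among them, was set beside the 9. This list too was chosen with earlier results of these data known. Of the 28, 19 passed the filter and 4 were called higher with EZH2i than in Ctr, namely Barx1, Vax2, Hmx1 and Nkx1-1. None was called lower, where 0.405% of all genes tested were called. With IFN-γ, Barx1, Vax2 and Hmx1 were called higher and none was called lower, where 0.353% were called. Genes such as Lbx1, with 2 counts in Ctr and 239 in EZH2i, pass the filter only where they are high, so no median is given over those that passed. Barx1, Vax2, Hmx1 and Nkx1-1 also passed through EZH2i libraries, with 6, 15, 7 and 11 counts over the Ctr libraries. Genes this low could be called higher but hardly lower, so the absence of lower calls among them says little. Vax2, a factor of the ventral eye, rose from 0.135 ± 0.078 CPM in Ctr to 6.92 ± 5.84 in EZH2i (SD, n = 3; edgeR adjusted p = 0.0244). Barx1, a factor of stomach and teeth, rose from 0.0524 ± 0.0532 to 2.52 ± 1.50 CPM (SD, n = 3; edgeR adjusted p = 0.00901). Hmx1 rose from 0.0651 ± 0.0076 to 1.66 ± 0.72 CPM and Nkx1-1 from 0.100 ± 0.0427 to 0.923 ± 0.315 CPM (SD, n = 3). The oligodendrocyte genes did not pass: Nkx2-2 was at 70.7 ± 38.3 CPM in Ctr and 32.7 ± 12.9 in EZH2i, with a log2 fold change of -1.11, a standard error of 0.67 and an edgeR adjusted p of 0.874. Nkx6-2 was at 6.84 ± 2.31 and 7.95 ± 4.94 CPM, with a log2 fold change of 0.21 and an edgeR adjusted p of 0.988. Dbx2, a neural tube factor, was the 1 gene of this list called for IFN-γ, where 8.75% of genes were called without EZH2i and 8.07% with it. It was lower both without and with EZH2i.

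**Figure D3:**
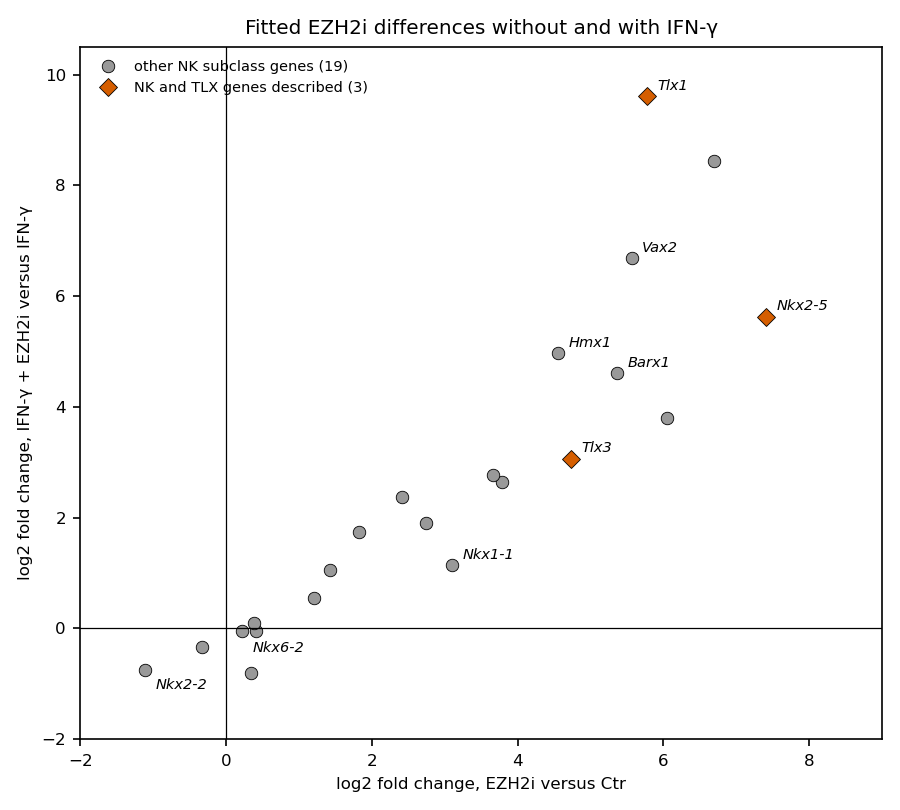
Fitted log2 fold changes of EZH2i without IFN-γ (x axis) and with it (y axis), from separate libraries, for the 3 of the 9 genes past the filter (diamonds) and the 19 of the other listed NK subclass genes past it (circles). Nkx2-2 and Nkx6-2 lie at -1.11 and 0.21 on the x axis and Tlx1, Nkx2-5 and Tlx3 at 5.78, 7.41 and 4.74. Values of genes at 0 in a base group, Nkx2-5 on x and Tlx1 on y among them, depend on edgeR's prior count and are no measure of size.

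Genes of the tissues in which these factors act were counted by list, beside 0.405% of all genes called by EZH2i without IFN-γ and 0.353% with it. These lists too were chosen with earlier results of these data known. Of 10 genes for lung, thyroid and ventral forebrain, 4 passed the filter. Of these, Shh, the ventral morphogen, was called higher with EZH2i both without and with IFN-γ. Shh rose from 0.396 ± 0.050 CPM in Ctr to 1.59 ± 0.23 in EZH2i, and from 6.14 ± 0.23 in IFN-γ to 16.7 ± 2.7 with both (SD, n = 3). The edgeR adjusted p-values were 0.00378 and 0.00654. IFN-γ raised Shh and Tg, the thyroglobulin gene, each both without and with EZH2i, where 8.75% and 8.07% of genes tested were called. Tg was near the floor, with 6 counts in Ctr and 40 in IFN-γ, and 5 in EZH2i and 46 with both. Of 10 heart genes, 2 passed the filter and none was called. The cardiac factor Gata4 had no count in Ctr and 0.691 ± 0.558 CPM in EZH2i (SD, n = 3; edgeR adjusted p = 0.154). Hand2, the other heart gene past the filter, had none in Ctr and 1.96 ± 2.40 CPM in EZH2i (SD, n = 3; edgeR adjusted p = 0.207). Below the filter, Tnnt2, Actc1 and Nppa had 19, 5 and 15 counts in Ctr and 5, 3 and 14 in EZH2i. Myl2, Hand1 and Tbx5 had 1, 0 and 0 counts in Ctr and 9, 3 and 8 in EZH2i. Nppb had no count in these groups, and the atrial gene Myl7 had none in any library. Of 10 motor neuron and beta cell genes, 4 passed and Neurod1 was called with EZH2i under IFN-γ, from 0.366 ± 0.242 to 4.66 ± 2.84 CPM (SD, n = 3; edgeR adjusted p = 0.0444), while Ins1 and Ins2 had no count. None was called by EZH2i of 10 dorsal spinal cord and sensory genes (6 past the filter), 6 enteric genes (4 past it) or 4 gut and spleen genes (1 past it).

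Genes near 6 of the 9 could be tested. Within 50 kb of the 9 lay 46 annotated genes, of which 21 passed the filter, and none of these was near Tlx1, Nkx6-1 or Nkx2-9. Most of these genes lay near Tlx2. None of the 21 was called by EZH2i without or with IFN-γ, where 0.405% and 0.353% of genes tested were called. At such shares the absence of calls among 21 genes says little. The lowest edgeR adjusted p-values of the 21 were 0.229 and 0.376. Their log2 fold changes ran from -0.12 to 0.84 and from -0.27 to 0.97. Tlx1os, the antisense gene that overlaps Tlx1, had no count in the 12 libraries. Lbx1, at chr19:45232684-45235812, lay outside the 50 kb around Tlx1 and had 2 counts in Ctr and 239 in EZH2i. For EZH2i versus Ctr its edgeR adjusted p of 0.104 did not pass. Near Tlx3, Gm12116 and Ranbp17 were at 0.19 and -0.12 on the log2 scale for EZH2i versus Ctr. Near Tlx2, Dqx1 was at 0.55 and Pcgf1 at 0.19, and near Nkx2-1, Sfta3-ps was at 0.84. Of the transcripts, Tlx1-201 took 95.4% of the counts of Tlx1 and Nkx2-5-201 took 99.1% of those of Nkx2-5.

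The genes most like Tlx1 across the 12 libraries were Vax2, Hoxa7 and Hoxd8, with a Pearson correlation of log2(CPM + 0.1) of 0.990, 0.981 and 0.979. Genes past the filter that averaged 1 CPM or more were searched, and this is a description, since the libraries share the EZH2i difference and the litters. For Nkx2-5 the first 3 were Tlx1 at 0.947, En1 at 0.942 and Vax2 at 0.940. Hoxd8, a patterning gene of the trunk, was at 0.0476 ± 0.0109 CPM in Ctr and 7.60 ± 3.86 in EZH2i (SD, n = 3). For Tlx3 they were Ebf1 at 0.938, Nsmf at 0.931 and Slc8a3 at 0.919.

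Replicates of 1 group differed for these genes. Replicate 1 was the highest EZH2i library for 5 of the 9 genes and the highest with both agents for 6 of them. Tlx1 differed 4.06 times between the highest and lowest EZH2i library and 6.88 times with both agents. The summed levels of some marker lists also differed between groups. All 7 neuron markers were fitted higher with EZH2i than in Ctr, where none was called, and 6 of 7 were fitted higher with both agents than with IFN-γ. Of these, Stmn2 rose from 0.855 ± 0.104 to 5.03 ± 2.06 CPM (SD, n = 3; edgeR adjusted p = 0.0321). Endothelial markers, 6 genes, summed to 13.8 to 21.0 CPM in Ctr and 25.2 to 40.0 in EZH2i, and replicate 1 was the highest in each. Pericyte and fibroblast markers, 7 genes, went from 1.58 to 2.68 CPM in Ctr to 3.10 to 4.68 in EZH2i. OPC markers, 7 genes, summed to 8111 to 8375 CPM in Ctr and 6700 to 7100 in EZH2i, and those of mature oligodendrocytes, 6 genes, to 1471 to 1839 and 808 to 1287. Under IFN-γ these lists also did not overlap by EZH2i, with OPC markers at 5292 to 7130 CPM without it and at most 5199 with it, and those of mature oligodendrocytes at 1393 to 1611 and 781 to 1272 CPM. Endothelial markers summed to 12.9 to 19.4 and 20.8 to 36.4 CPM under IFN-γ, and those of pericytes and fibroblasts overlapped there. Of the 4 endothelial markers past the filter, 2 were fitted higher and 2 lower by EZH2i under IFN-γ. No endothelial, pericyte and fibroblast, OPC or mature oligodendrocyte marker was called by EZH2i, where 0.405% of genes tested were called without IFN-γ and 0.353% with it. The 6 markers of Schwann cells and neural crest, where Sox10 is also active, overlapped at 471 to 775 and 402 to 655 CPM. Astrocyte and ependymal markers overlapped too, at 1230 to 2095 against 1573 to 2534 CPM and 9.80 to 16.3 against 9.12 to 11.8 CPM. No marker of the endothelial, pericyte or OPC list was at 0 in all libraries of Ctr or of EZH2i, and 1 endothelial marker was at 0 with both agents. The part of these differences in the levels of the 9 genes was not tested.

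**Figure D4:**
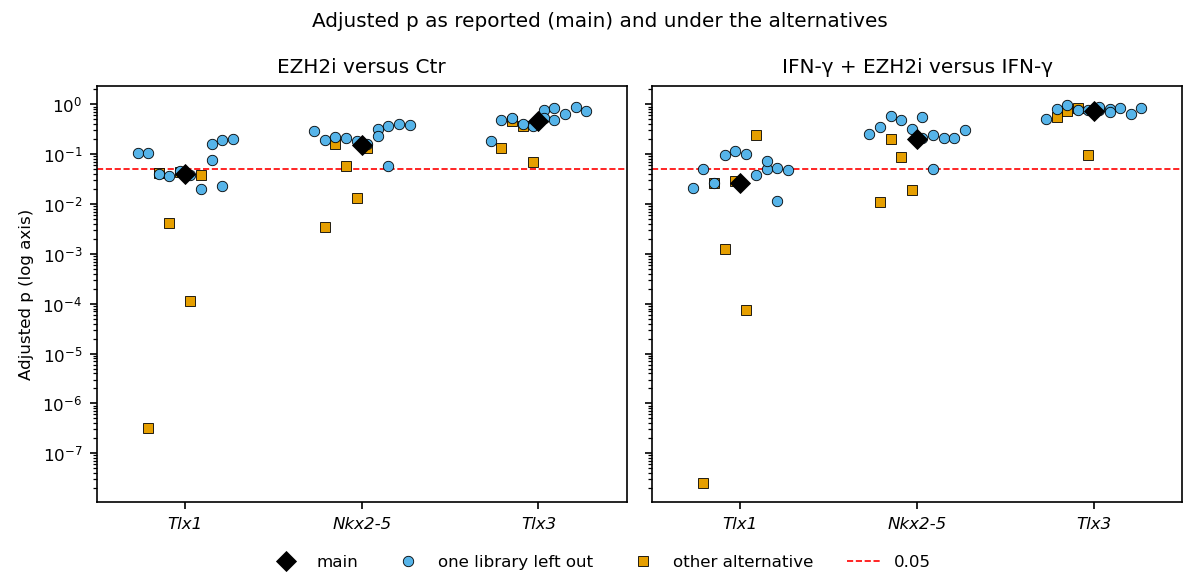
Adjusted p (log axis) of the 3 genes past the filter for EZH2i without and with IFN-γ, as reported (diamonds), with 1 library left out (circles) and under the other alternatives (squares), with the threshold of 0.05 dashed. The values for Tlx1 lie on both sides of the threshold, from 3.24e-07 to 0.199 without IFN-γ, and those of Tlx3 lie above it in both panels.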

How the data were processed

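RNA-seq was performed on 12 libraries with a stranded total RNA kit. Trimmed read pairs were quantified by the authors with Salmon 0.8.2. The deposited files give each transcript an estimated count, a TPM value and an effective length. TPM was scaled by the authors for that length, which is a signal column modelled by Salmon as deposited and was not tested. The authors also deposited 2 DESeq2 tables of their own comparisons, with log2 fold changes, statistics and p-values, which were not used here.

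Estimated counts were summed per gene (GENCODE on GRCm38, all 141862 transcripts matched) and rounded. The test was edgeR 4.0.16 (R 4.3.3) with TMM factors, its default filter and the group as the only term. Totals per library ranged from 17403896 to 66546017 counts, which leaves genes under about 0.1 CPM with a few counts. Fold changes against a group at 0 use a floor of 3 counts over the group, and ratios carry exact binomial 95% intervals. Neighbours lay within 50 kb. The fit was tested on simulated data.

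Alternatives were RLE factors, DESeq2 1.42.0, no filter, a mean of at least 10 counts, the replicate number as a block, only the groups compared, TPM, and each library left out.

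The genes named were the 9 members, Nkx2-2 and Nkx6-2, called genes of the related lists, up to 3 neighbours each, the 3 most alike genes of the 3 members highest in mean CPM, and check genes. Gata4, Myl7 and the other heart genes, Ins1, Ins2, Lbx1 and the neuron markers were added after their values were seen. Members and lists were chosen with earlier results of these data known.

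Libraries with the same replicate number correlated in their deviations from group means at 0.605 to 0.748 between both EZH2i groups and between both IFN-γ groups. Between Ctr and IFN-γ the lowest value was 0.105, just over the limit of 0.1 set for pairing, and between Ctr and EZH2i it was 0.0929. By this limit the numbers pair the groups compared except for EZH2i versus Ctr. That exception rests on replicate 2, since replicates 1 and 3 were at 0.583 and 0.608 there. Between EZH2i and IFN-γ the values were 0.575 to 0.681, so the limit does not settle whether Ctr and EZH2i are paired. The main test had the group as its only term and did not use pairing.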

Additional observations from a re-analysis of the deposited data

How the results depend on the processing

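Without EZH2i and IFN-γ depth limits these results: 3 counts over the Ctr group are 0.0286 CPM, and 6 of the 9 genes were too low for the filter. The number of the 9 genes called was 1 for EZH2i versus Ctr and 1 for IFN-γ with EZH2i versus IFN-γ. With DESeq2 it was 2 and 2, with the replicate block 2 and 2 (Nkx2-5 added in both, at edgeR adjusted p-values of 0.0134 and 0.0191), with only the groups compared 1 and 0, and without 1 library 0 to 1 in each. For IFN-γ versus Ctr it was 0, and 1 with the replicate block. For IFN-γ with EZH2i versus EZH2i it was 0, 1 with no filter and 0 to 1 without 1 library, which is Nkx2-3. The interaction called 0 in all 17 alternatives. RLE factors and a mean of at least 10 counts changed none of these numbers. That mean left out Nkx2-5 and Tlx3, at 111 and 71 counts over the 12 libraries, so only Tlx1 could be called there. The cause of the differences between the alternatives was not tested.

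Some log2 fold changes that were not called changed sign when 1 library was left out. For IFN-γ with EZH2i versus EZH2i they ranged from -0.60 to 0.66 for Nkx2-5, -1.42 to 0.31 for Tlx1 and -1.01 to 1.38 for Tlx3. For IFN-γ versus Ctr, Nkx2-5 ranged from 0.00 to 2.43 without a change of sign, where 0.00 comes from leaving out IFN-γ replicate 1 and with it the only count of both groups. The EZH2i share of the summed level of Nkx2-1 in EZH2i and Ctr was 47.0% in CPM and 51.0% in TPM.

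Over all genes, EZH2i versus Ctr called 77 genes, 331 with DESeq2, 121 with no filter, 771 with the replicate block, 33 with only the groups compared and 11 to 83 without 1 library. IFN-γ with EZH2i versus IFN-γ called 67, 281 with DESeq2, 748 with the block, 7 with only the groups compared and 10 to 65 without 1 library. With the block, IFN-γ versus Ctr called 4032 in place of 1663, and IFN-γ with EZH2i versus EZH2i 3661 in place of 1533.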
